A study of Rattus norvegicus with 24 samples.

Results

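The chaperone and heat shock genes were taken by symbol from rat expression arrays of the developing cerebellum and hippocampus. A probe set was included if the platform table gave it 1 symbol that starts with Hspa, Hspb, Hspd, Hspe, Hsph, Hsp90, Dnaja, Dnajb or Dnajc (except Dnajc5) or with Cct and a digit, or that equals Tcp1 or Stip1. This gave 77 of 15866 probe sets, for 61 genes. Of these, 57 probe sets for 48 genes passed the filter on low values, which keeps a probe set whose value exceeds the 40th percentile in 3 or more arrays. The binding proteins Hspbp1 and Hspbap1 came in through the prefix Hspb and are not small heat shock proteins. Hspa8, Hsp90aa1 and Hspa1b have only probe sets with several symbols here and are therefore not described.

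Chaperones bind unfolded or partly folded proteins and help them reach or keep their shape. HSP70 proteins work in cycles of ATP hydrolysis that J proteins (the Dnaja, Dnajb and Dnajc families) start and that HSP110 proteins reset, HSP90 takes over late folding steps, and the ring-shaped chaperonin TRiC, built from Tcp1 and the Cct subunits, folds actin and tubulin. Mitochondria use Hspa9 and the chaperonin pair Hspd1 and Hspe1, the endoplasmic reticulum (ER) uses Hspa5 and Hsp90b1, and heat shock factor 1 (HSF1) raises a subset of these genes when proteins misfold.

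All pups were Long-Evans rats, labelled as males, and their mothers were given daily oral gavage of corn oil with Aroclor 1254, a commercial mixture of polychlorinated biphenyls, from gestation day 6. The dose was 0 mg/kg/day in undosed dams 1, 7 and 13 and 6 mg/kg/day in dosed dams 12, 15 and 18. At postnatal day (PND) 7 and PND14, 1 pup per litter was taken, and cerebellum and hippocampus were measured. The 8 groups of tissue, age and dosing held 3 arrays each, except undosed cerebellum at PND14. There the array of dam 13, whose column median was 7.91 against 7.42 to 7.48 in the others, was left out and 2 arrays remained. The label records dosing up to the age of the pup, while the protocol describes dosing through PND21. The study asked how this exposure alters gene expression during brain development, and its dosed unit is the dam, of which there were 3 per dosing group.

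Values are on the log2 scale, so a difference of 1 is a doubling. Group mates among the 23 arrays correlated at r = 0.985 to 0.997. Arrays did not all match their labels. In 4 of the 23 arrays Xist, a transcript of the inactive X chromosome, lay between 8.98 and 10.76, although the pups are labelled male, and in the other 19 it lay between 3.95 and 4.32. The 4 arrays are both tissues of the PND14 pup of dam 1 and both tissues of the PND7 pup of dam 13, all undosed. Comparisons between dosed groups therefore hold none of them. A call that changes there when the 4 are left out does so through the spread, normalisation and adjustment shared by all arrays. A further pup, that of dam 15 at PND14, stood apart from its group mates for several chaperones and is described separately. Main counts are given also without these arrays where they change by more than 1.5 times. Tissue identity matched the labels. Of 9 Purkinje cell markers, 7 to 9 were higher in cerebellum in the 4 tissue comparisons, and of 6 markers of hippocampal neurons, 5 or 6 were higher in hippocampus.

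Sequences upstream of the members show which of them carry the binding motifs of the stress pathways. RefSeq promoters on the GRCr8 assembly, from 250 bases before to 50 bases after the start, were found for 51 of the 61 genes. The heat shock element to which HSF1 trimers bind was searched on both strands as GAA, any 2 bases, TTC, any 2 bases and GAA, and 5 of the 51 (9.8%) held it, against 0.74% of 27457 rat promoters. The motif is in capitals and each sequence is on the strand of its gene. Hspd1 and Hspe1 lie head to head, and their sequences are the opposite strands of 1 site.
Hspd1 (chr9:64084242-64084287, minus strand): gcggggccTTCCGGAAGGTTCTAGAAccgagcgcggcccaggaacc
Hspe1 (chr9:64084242-64084299, plus strand): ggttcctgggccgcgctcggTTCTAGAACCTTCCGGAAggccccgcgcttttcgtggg
Hsph1 (chr12:10427312-10427364, plus strand): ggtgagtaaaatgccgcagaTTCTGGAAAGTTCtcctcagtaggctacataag
Cct4 (chr14:101193082-101193094, plus strand, after the start): TTCTGGAAGGTTC
Dnaja1 (chr5:60638413-60638425, plus strand, after the start): GAACTTTCCAGAA

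The ER stress element, which the factors of the unfolded protein response bind, was searched on both strands as CCAAT, any 9 bases and CCACG. It was found in 3 of the 51 (5.9%), against 0.08% of all promoters, and the 3 genes encode ER chaperones. Hsp90b1 held a second match that is not shown. A match is a description of the letters only.
Hspa5 (chr3:38452953-38453011, plus strand): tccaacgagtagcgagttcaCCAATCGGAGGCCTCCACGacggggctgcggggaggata
Hsp90b1 (chr7:23012431-23012489, minus strand): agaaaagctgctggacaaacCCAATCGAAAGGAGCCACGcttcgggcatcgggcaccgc
Dnajc3 (chr15:102432514-102432572, plus strand): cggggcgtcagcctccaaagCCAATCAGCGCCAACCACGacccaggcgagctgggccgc

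The subunits of the cytosolic chaperonin TRiC declined together between PND7 and PND14 in both tissues. All 8 subunits were measured. In cerebellum 5 of 8 fell in undosed and 7 of 8 in dosed pups, and in hippocampus 8 of 8 fell in undosed and 6 of 8 in dosed pups, with 0 higher in any of the 4. The share of all tested probe sets called lower was 17.3%, 18.8%, 16.9% and 14.2% in these comparisons. The median change of the 8 was -0.37, -0.41, -0.38 and -0.31, against medians between -0.03 and 0.00 for all tested probe sets. A gene is called where the adjusted p from limma, with Benjamini-Hochberg adjustment over all 10330 probe sets tested, is under 0.05.

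Cct4, Cct5, Cct7 and Tcp1 fell in all 4 age comparisons. With the 4 arrays of high Xist left out, Cct5, Cct7 and Cct3 lost the call in both undosed groups, and Cct6a in undosed hippocampus. Tcp1, the founding subunit of the ring, was at 11.76, 11.58 and 11.65 in undosed PND7 cerebellum (dams 1, 7 and 13) and at 11.19 and 11.21 at PND14 (dams 1 and 7). In dosed cerebellum it went from 11.61, 11.77 and 11.67 (dams 12, 15 and 18) to 11.29, 11.02 and 11.29. Every PND14 array lay below every PND7 array of the same dosing. The changes were -0.46 ± 0.09 (SE, 3 against 2 dams, adjusted p = 0.000544) in undosed and -0.48 ± 0.08 (3 dams per age, adjusted p = 8.98e-05) in dosed cerebellum.

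Cct4, which also carries a heat shock element, fell in hippocampus in both dosing groups. In undosed pups it was at 11.37, 11.27 and 11.29 at PND7 (dams 1, 7 and 13) and at 10.83, 10.79 and 10.98 at PND14. In dosed pups it was at 11.40, 11.27 and 11.37 at PND7 and at 10.85, 10.90 and 10.79 at PND14 (dams 12, 15 and 18). The ages did not overlap in either dosing group. The changes were -0.45 ± 0.07 (limma adjusted p = 9.6e-05) and -0.50 ± 0.07 (adjusted p = 4.11e-05), the latter a 1.41-fold fall.

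Cct2, Cct3, Cct6a and Cct8 missed the call in at least 1 age comparison, Cct8 in 3. Cct2 had -0.24 ± 0.12 (limma adjusted p = 0.129) and Cct6a -0.24 ± 0.15 (adjusted p = 0.249) in undosed cerebellum. Cct3 had -0.17 ± 0.08 (adjusted p = 0.114) in dosed hippocampus. Cct8 fell only in undosed hippocampus, by 0.52 ± 0.14 (adjusted p = 0.00597), and its changes in the other 3 comparisons lay between -0.27 and -0.14. With 1 probe set per gene all 8 estimates were negative in each of the 4 comparisons. The other probe set of Cct6a had 0.17 in undosed cerebellum, not called, and was called lower in the other 3, with -0.76 in dosed hippocampus.

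Markers of dividing cells moved the same way. All 14 measured fell in cerebellum in both dosing groups (median -0.98 in undosed and -1.39 in dosed pups), and 8 of 14 fell in hippocampus (medians -0.48 and -0.44). Their mean level per array ran from 9.09 to 9.20 in undosed PND7 cerebellum and from 8.07 to 8.26 at PND14, and from 7.41 to 7.53 and 6.91 to 7.05 in undosed hippocampus. Their part in the chaperonin result was not tested. In whole tissue, fewer cells of a type and less RNA per cell cannot be told apart. Without the 4 arrays of high Xist, which leaves 1 array in undosed PND14 cerebellum, 2 of 8 subunits were called lower in undosed cerebellum and 4 of 8 in undosed hippocampus, while the medians were -0.36 and -0.39. In dosed hippocampus 3 of 8 were called without the PND14 array of dam 18, and with all 24 arrays 5 of 8 were called in undosed and 2 of 8 in dosed hippocampus. The median there was -0.29 without dam 18 and -0.31 with all 24.

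**Figure D1:**
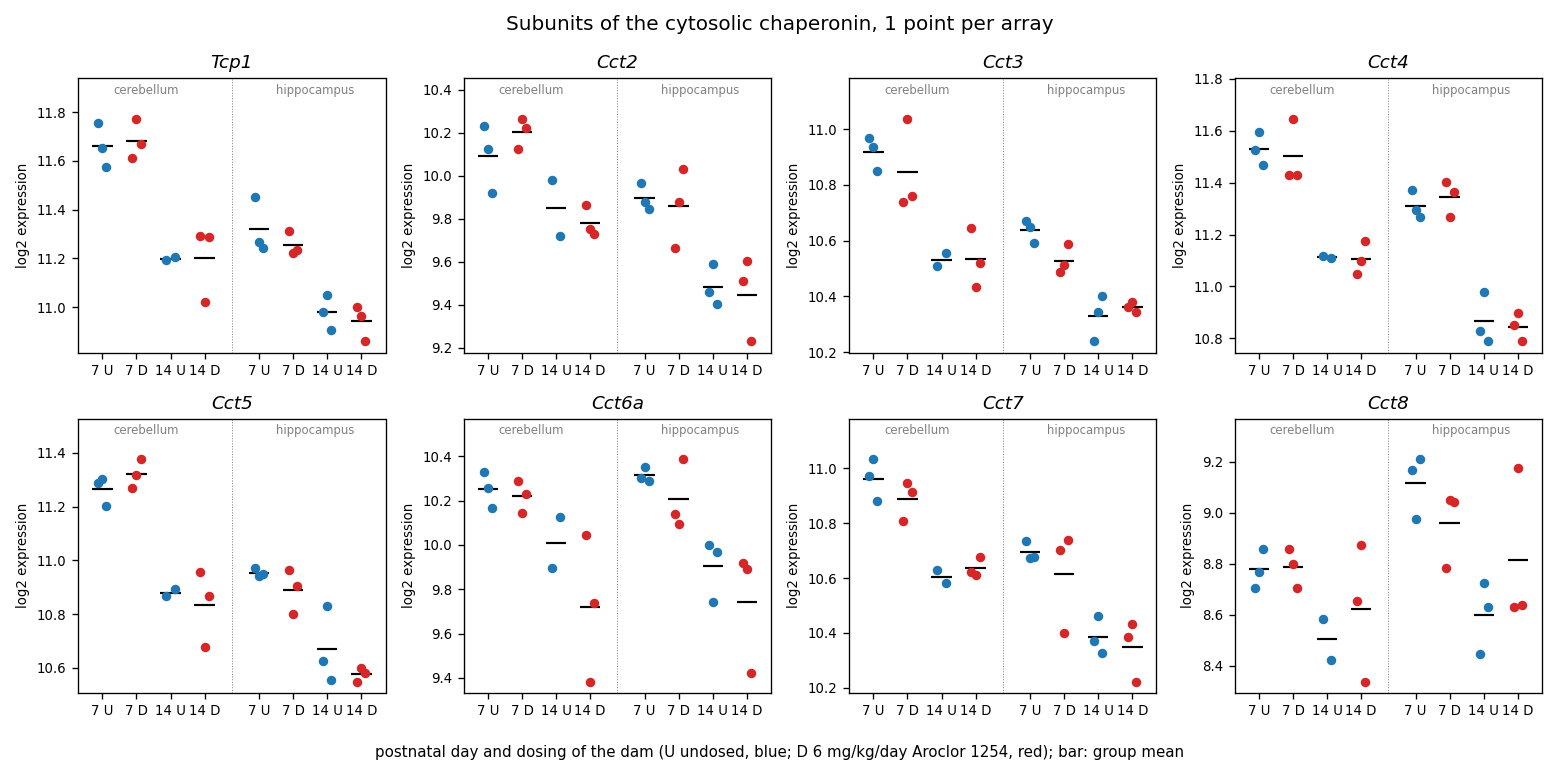
Log2 expression (y axis) of the 8 chaperonin subunits in each of 23 arrays, by postnatal day and dosing (x axis, U undosed and D dosed, cerebellum left and hippocampus right in each panel), with points for arrays and bars for group means. The group means of Tcp1, Cct4, Cct5 and Cct7 sit lower at PND14 than at PND7 in each tissue and dosing group, for example Tcp1 at 11.58 to 11.76 in undosed PND7 cerebellum and 11.19 to 11.21 at PND14.

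Genes that work with the chaperonin were less uniform. The list of these partners held prefoldin subunits and tubulin cofactors, which hand over or finish chaperonin substrates, and phosducin-like proteins. Of 11 measured, 1 fell in cerebellum in each dosing group and 5 fell in hippocampus in each, with 0 higher. The 1 of 11 in cerebellum stands beside 17.3% and 18.8% of all tested called lower, and the 5 of 11 in hippocampus beside 16.9% and 14.2%. In hippocampus the tubulin cofactor Tbca fell by 0.59 ± 0.09 in undosed and 0.47 ± 0.09 in dosed pups. Medians were -0.08, -0.16, -0.31 and -0.21 in undosed cerebellum, dosed cerebellum, undosed hippocampus and dosed hippocampus.

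The chaperonin was also higher in cerebellum than in hippocampus. In each of the 4 tissue comparisons (PND7 or PND14, undosed or dosed) 5 of 8 subunits were called higher in cerebellum, beside 26.4%, 29.1%, 27.5% and 27.4% of all tested probe sets. Cct5, Cct7 and Tcp1 were higher in all 4, Tcp1 by 0.34 ± 0.08 in undosed and 0.43 ± 0.08 in dosed pups at PND7 and by 0.22 ± 0.09 and 0.26 ± 0.08 at PND14. Cct8 went the other way in undosed PND7 pups (-0.34 ± 0.14, limma adjusted p = 0.0424) and the Cct6a probe set used here did not pass in any of the 4, while its other probe set was called higher at PND14, by 0.58 in undosed and 0.37 in dosed pups. Dividing cell markers were higher in cerebellum too, 14 of 14 in 3 comparisons and 13 of 14 in dosed PND14 pups, and their part was not tested. Without the arrays of high Xist, 3 of 8 subunits were called at PND7 and 0 of 8 at PND14 in undosed pups, with medians of 0.20 and 0.21 against 0.24 and 0.21. At PND14 the call also hung on single arrays. In undosed pups 0 of 8 were called without the cerebellum of dam 1, 1 without that of dam 7, and 2 without the hippocampus of dam 1 or of dam 7. In dosed pups 3 were called without the cerebellum of dam 12 or the hippocampus of dam 18, and with all 24 arrays. With the values as deposited 3 were called in undosed pups at PND7 and at PND14, and with no filter 3 in undosed PND14 pups. The medians of the PND14 fits without 1 array that are named here lay between 0.19 and 0.23. Among the other PND14 fits without 1 array the highest median was 0.28, in dosed pups without the cerebellum of dam 15.

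Over all families, the members changed with age about as often as other genes. In undosed cerebellum 7 probe sets of 57 rose and 8 fell (26.3%, beside 32.5% of all tested), and in dosed cerebellum 8 rose and 16 fell (42.1% beside 34.8%). In undosed hippocampus 8 rose and 11 fell (33.3% beside 31.8%), and in dosed hippocampus 9 rose and 11 fell (35.1% beside 28.4%). Of the 48 genes, 29 were called in at least 1 of the 4 and 19 in none, and 0 were called in opposite directions. The count in dosed hippocampus was 7 without the PND14 array of dam 18 and between 10 and 19 without any other array. Without the arrays of high Xist the counts were 7 probe sets in undosed cerebellum (15.8% of all tested), 11 in undosed hippocampus (19.5%) and 13 in dosed hippocampus (23.3%). The genes that rose were Hspb6, Hspa9, Hspa12a and J proteins.

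**Figure D2:**
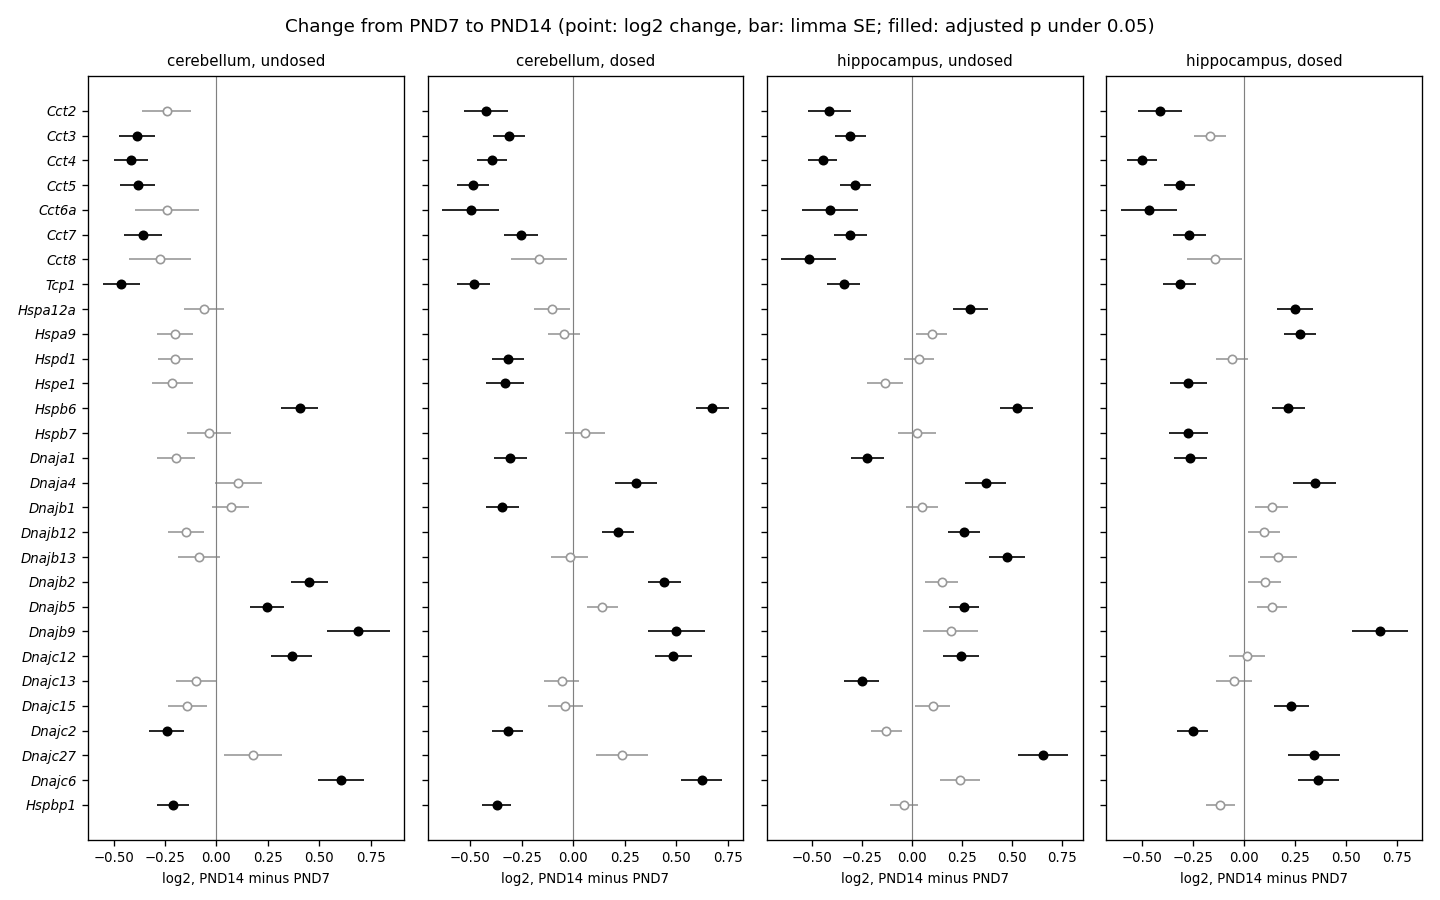
Log2 change from PND7 to PND14 (x axis) with limma SE for the 29 members called in at least 1 of 4 age comparisons (rows), 1 panel per tissue and dosing group, with filled points for adjusted p under 0.05. The Cct subunits and Tcp1 lie left of 0 in all panels, and Hspb6 lies right of 0 and is filled in all 4.

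Hspb6, a small heat shock protein known from muscle and astrocytes, was the 1 member called higher in all 4 age comparisons, in dosed hippocampus only narrowly. In undosed cerebellum it was at 7.79, 7.60 and 7.75 at PND7 (dams 1, 7 and 13) and at 8.05 and 8.19 at PND14 (dams 1 and 7). In dosed cerebellum it was at 7.51, 7.69 and 7.62 at PND7 and 8.30, 8.21 and 8.34 at PND14. Neither pair of groups overlapped. The rises were 0.41 ± 0.09 (limma adjusted p = 0.00155) in undosed and 0.68 ± 0.08 (adjusted p = 1.53e-06) in dosed cerebellum, the latter 1.60-fold.

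In hippocampus Hspb6 rose by 0.52 ± 0.08 (adjusted p = 4.78e-05) in undosed and by 0.22 ± 0.08 (adjusted p = 0.0473) in dosed pups by limma. The call in dosed hippocampus held in 5 of 15 other settings, in which the change lay between 0.16 and 0.26 and the adjusted p between 0.0381 and 0.192. It was lost without the arrays of high Xist, none of which is in this comparison and where the change stayed at 0.22. The call was also lost without 4 of the 6 single arrays, those of dams 12 and 18 at PND14 and of dams 15 and 18 at PND7. The PND14 levels of both dosing groups lay close together, at 8.09, 7.95 and 7.99 in undosed and 8.04, 7.97 and 8.07 in dosed pups, and the PND7 levels lay apart. Of 9 astrocyte markers, 3 rose in hippocampus in each dosing group, and in cerebellum 1 rose and 2 fell in undosed pups and 2 rose and 1 fell in dosed pups. Their part in the rise of Hspb6 was not tested. Hspb7, the other small heat shock protein among the members that passed the filter, fell by 0.27 ± 0.10 (adjusted p = 0.0394) in dosed hippocampus. It did not pass elsewhere.

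Dnajc6, Dnajb2, Dnajc12 and Dnajb9 rose in cerebellum in both dosing groups. Dnajc6 encodes auxilin, which strips clathrin from synaptic vesicles. It was at 9.55, 9.71 and 9.50 in undosed PND7 cerebellum (dams 1, 7 and 13) and at 10.17 and 10.21 at PND14, and rose by 0.60 ± 0.11 in undosed and 0.62 ± 0.10 in dosed cerebellum (limma adjusted p = 0.000314 and 5.61e-05). In dosed hippocampus Dnajc6 was called higher too, by 0.36, while its other probe set had 0.20 and was not called. Dnajb2, a neuronal J protein that sorts clients toward the proteasome, rose by 0.45 ± 0.09 and 0.44 ± 0.08. Dnajc12, a partner of Hspa8 linked to aromatic amino acid hydroxylases, rose by 0.37 ± 0.10 and 0.48 ± 0.09, the former with an adjusted p of 0.0624 without the arrays of high Xist.

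Dnajb9, an ER J protein that feeds back on the unfolded protein response, rose in 3 of the 4 comparisons. In cerebellum the rise was 0.69 ± 0.15 (limma adjusted p = 0.00154) in undosed and 0.50 ± 0.14 (adjusted p = 0.00663) in dosed pups. The undosed arrays went from 7.49, 7.75 and 7.42 (dams 1, 7 and 13) to 8.20 and 8.29, without overlap. In hippocampus it rose by 0.66 ± 0.14 in dosed pups and had 0.19 ± 0.14 (adjusted p = 0.298) in undosed pups. The ER J proteins Dnajb11 and Dnajc10 were not called with age. The difference of Dnajb9 between dosing groups in hippocampus did not pass its own test (0.47 ± 0.19, adjusted p = 0.272).

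Dnajc27, Dnaja4 and Dnajb13 rose in hippocampus. Dnajc27, a small GTPase with a J domain, rose by 0.66 ± 0.13 (limma adjusted p = 0.000483) in undosed pups, from 9.38, 9.45 and 9.55 (dams 1, 7 and 13) to 10.02, 10.19 and 10.14. In dosed pups its rise was 0.34 ± 0.13 (adjusted p = 0.0468), with the PND14 array of dam 15 at 9.59 and its mates at 10.07 and 10.10. Dnaja4, a type A partner of HSP70, rose by 0.37 ± 0.10 and 0.35 ± 0.10 in undosed and dosed hippocampus. It rose in dosed cerebellum as well, by 0.30 ± 0.10 (limma adjusted p = 0.0264). Dnajb13, which is known from the flagella of sperm and from motile cilia, rose by 0.47 ± 0.09 in undosed hippocampus. None of the 11 genes listed for motile cilia had a tested probe set with 1 symbol. Genes with low values and genes without such a probe set were not told apart, so no cilia marker was measured beside it. Hspa12a, an atypical HSP70 of neurons, rose by 0.29 ± 0.09 in undosed and by 0.25 ± 0.09 in dosed hippocampus (adjusted p = 0.0139 and 0.0369), and the latter was 0.22 (adjusted p = 0.0917) without the PND14 arrays of dam 15. With the arrays of high Xist left out, Dnaja4 in undosed, Dnajc27 in dosed and Hspa12a in both hippocampus groups lost the call.

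Dnajc2, Hspbp1, Dnaja1, Hspd1 and Hspe1 fell in at least 1 group, and Hspa9 rose in dosed hippocampus (0.27 ± 0.08). Dnajc2, which sits on the ribosome, fell by 0.24 ± 0.08 in undosed and 0.32 ± 0.08 in dosed cerebellum and by 0.25 ± 0.08 in dosed hippocampus. Hspbp1, which releases nucleotide from HSP70, fell in both cerebellum groups (-0.21 ± 0.08 and -0.37 ± 0.07), and Dnaja1, which holds a heat shock element, fell in all but undosed cerebellum (-0.20 ± 0.09, limma adjusted p = 0.105). The other probe set of Dnaja1 was not called with age. It had -0.18 in dosed cerebellum, -0.13 in undosed hippocampus and -0.05 in dosed hippocampus. Hspd1 and Hspe1, the mitochondrial chaperonin pair that shares a promoter, fell together in dosed cerebellum, by 0.32 ± 0.08 and 0.33 ± 0.09. In undosed cerebellum they had -0.20 ± 0.09 (adjusted p = 0.0807) and -0.21 ± 0.10 (adjusted p = 0.111). The dosed PND14 array of dam 15 was low for both. Hspd1 was at 11.26 against 11.48 and 11.43 in its mates, and Hspe1 at 10.80 against 11.16 and 11.15. Without the PND14 arrays of dam 15, a setting chosen after seeing the data, both genes were called in undosed and in dosed cerebellum. In hippocampus Hspe1 fell in dosed pups (-0.27 ± 0.09) while Hspd1 had 0.04 in undosed and -0.06 in dosed pups. When the arrays of high Xist were left out, Dnajc2 and Hspbp1 in undosed cerebellum, Dnaja1 in undosed hippocampus and Hspe1 in dosed hippocampus lost the call.

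The stress-inducible genes showed no common course with age. Of 10 measured genes of an HSF1-inducible list, which includes members such as Hsph1, Dnajb1 and Stip1, 0 were called in undosed cerebellum, 1 rose and 3 fell in dosed cerebellum, 1 rose in undosed hippocampus and 1 rose and 1 fell in dosed hippocampus, beside 32.5%, 34.8%, 31.8% and 28.4% of all tested. Hspa1a, the inducible HSP70, lay between 7.00 and 7.69 in all 23 arrays and was not called with age (changes of -0.20 to 0.15). Hspb1 did not pass the filter, with group means of 5.55 to 5.98. Hsp90ab1, the constitutive cytosolic HSP90, had -0.21 ± 0.09 (limma adjusted p = 0.0821) and -0.19 ± 0.08 (adjusted p = 0.0712) in undosed and dosed cerebellum and -0.04 in both hippocampus groups. Its other probe set was called lower in both cerebellum groups, with -0.33 in undosed and -0.40 in dosed pups, and was not called in hippocampus. Dnajb1, an inducible J protein, fell by 0.34 ± 0.08 (adjusted p = 0.00222) in dosed cerebellum and had 0.07 ± 0.09 in undosed cerebellum.

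The tissues differed in single members by far more than in the chaperonin. Of 57 probe sets, 12 were higher and 16 lower in cerebellum than in hippocampus in undosed PND7 pups (49.1%, beside 50.7% of all tested), 15 and 18 in dosed PND7 pups (57.9% beside 59.1%), 10 and 17 in undosed PND14 pups (47.4% beside 54.1%) and 13 and 20 in dosed PND14 pups (57.9% beside 53.3%). Thus the share of members that differed was near that of all genes. By gene, 5 were higher in cerebellum in all 4 comparisons (Cct5, Cct7, Tcp1, Dnajc7 and Dnajc12) and 9 were lower in all 4 (Hspa12a, Hspa13, Hspbp1, Dnaja4, Dnajb4, Dnajb5, Dnajb13, Dnajc6 and Dnajc27). Without the arrays of high Xist, 16 probe sets were called in undosed PND7 pups (37.7% of all tested) and 15 in undosed PND14 pups (35.6%). Of the 14 genes, Cct5, Cct7, Tcp1, Dnajc7, Dnajb4 and Hspbp1 then lost the call in at least 1 comparison. Dnajc12 stayed higher, and Hspa12a, Hspa13, Dnaja4, Dnajb5, Dnajb13, Dnajc6 and Dnajc27 stayed lower, in all 4.

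Hspa12a had the largest difference of any member. It lay between 7.29 and 7.67 in the 11 cerebellum arrays and between 9.14 and 9.54 in the 12 hippocampus arrays, with no overlap. In undosed PND14 pups the cerebellum arrays were at 7.34 and 7.37 (dams 1 and 7) and the hippocampus arrays at 9.48, 9.54 and 9.35 (dams 1, 7 and 13), a 4.30-fold difference (log2 -2.10 ± 0.10, limma adjusted p = 3.74e-13). At PND7 it was -1.75 ± 0.09 in undosed and -1.73 ± 0.09 in dosed pups. The widening with age, -0.35 in each dosing group, did not pass its test (adjusted p = 0.0649 in undosed and 0.0663 in dosed pups).

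The J proteins Dnajb5, Dnajb13, Dnajc27 and Dnajc6 had the next largest differences. Dnajb5, a J protein tied to histone deacetylase signalling, was at 8.33 to 8.70 in all cerebellum arrays and 9.09 to 9.48 in all hippocampus arrays, with differences of -0.71 ± 0.07, -0.83 ± 0.07, -0.72 ± 0.08 and -0.82 ± 0.07 in undosed PND7, dosed PND7, undosed PND14 and dosed PND14 pups. Dnajb13 differed by -0.34 ± 0.09 and -0.69 ± 0.09 at PND7 and by -0.89 ± 0.10 and -0.87 ± 0.09 at PND14 in undosed and dosed pups. Dnajc27 differed most at PND14, by -1.02 ± 0.14 in undosed pups. Dnajc6 differed most at PND7, by -0.90 ± 0.10 in undosed and -0.77 ± 0.10 in dosed pups, and by -0.54 ± 0.11 and -0.51 ± 0.10 at PND14.

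Among members higher in cerebellum, Dnajc12 led at PND14. In dosed pups it was at 8.69, 8.71 and 8.73 in cerebellum and at 7.94, 8.12 and 7.85 in hippocampus (dams 12, 15 and 18), a difference of 0.74 ± 0.09 (limma adjusted p = 5.58e-07). Dnajc7, a co-chaperone of HSP70 and HSP90, was higher in cerebellum by 0.41 ± 0.08 and 0.34 ± 0.08 at PND7 and by 0.28 ± 0.09 and 0.23 ± 0.08 at PND14 in undosed and dosed pups. Stip1, which joins HSP70 to HSP90, was higher at PND7 only by call (0.39 ± 0.12 and 0.36 ± 0.12), with 0.19 ± 0.14 and 0.24 ± 0.12 at PND14, and the call in undosed PND7 pups was lost without the arrays of high Xist. At PND7 Hspd1 was higher in cerebellum by 0.30 ± 0.08 and 0.31 ± 0.08 and the mitochondrial HSP70 Hspa9 by 0.20 ± 0.08 and 0.39 ± 0.08, both with the call in undosed pups lost without the arrays of high Xist.

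Probe sets of a gene disagreed in a few tissue comparisons. The Hsp90ab1 probe set used here had -0.21 ± 0.08 (limma adjusted p = 0.0343) in dosed PND14 pups and another probe set of the gene had 0.04, and in dosed PND7 pups they had -0.06 and 0.27. For Cct6a in dosed PND14 pups the changes were -0.02 and 0.37, and for Hspa9 in undosed PND14 pups -0.10 and 0.23. Each of these pairs had 1 call, and no gene had calls in both directions. With age, probe sets of Cct6a, Dnajb1, Dnajc10, Dnajc14 and Hspa9 had opposite signs in at least 1 comparison, with no call on either side.

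**Figure D3:**
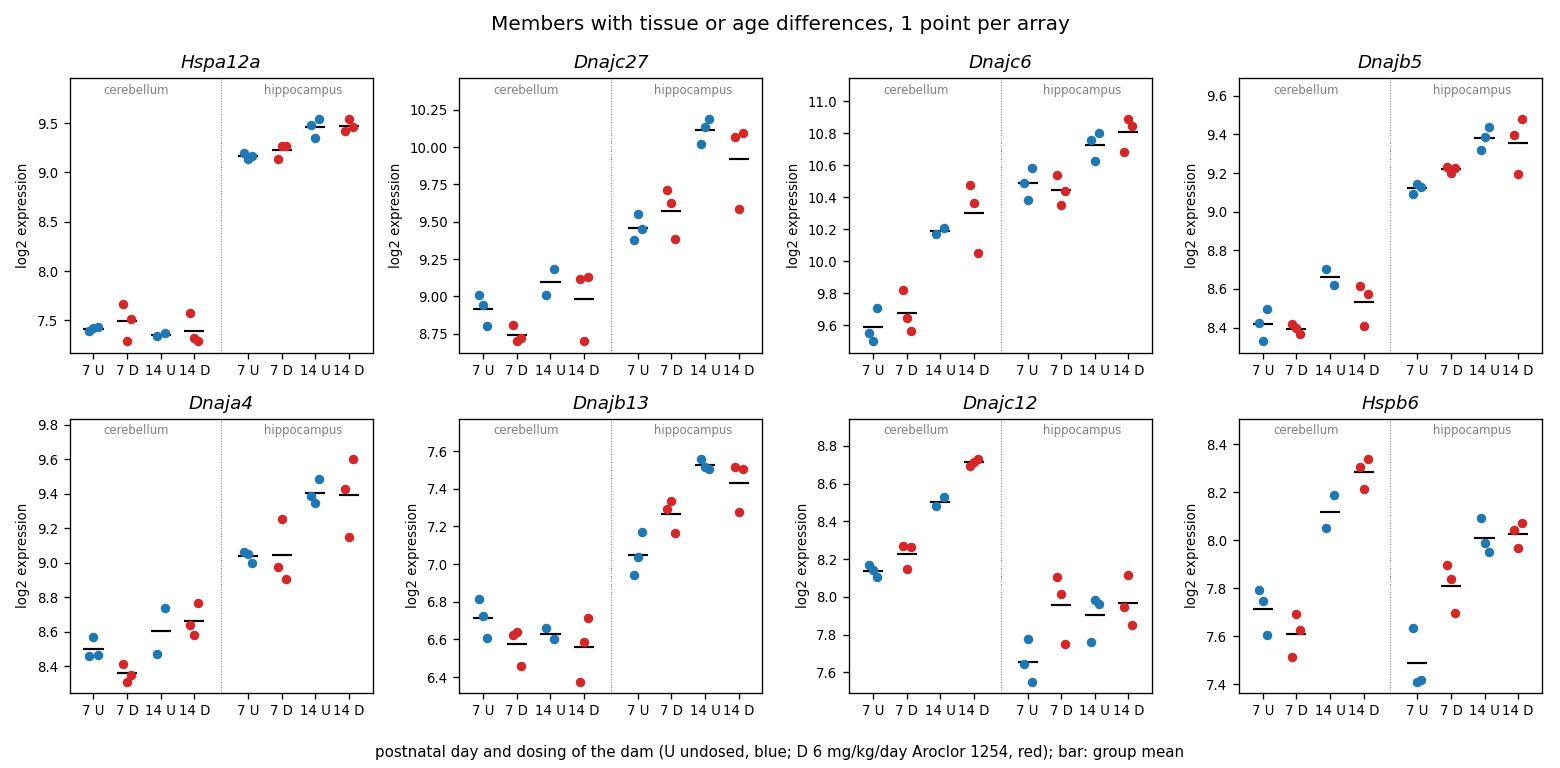
Log2 expression (y axis) of 8 members with tissue or age differences in each of 23 arrays, by postnatal day and dosing (x axis, cerebellum left and hippocampus right), with points for arrays and bars for group means. Hspa12a lies between 7.29 and 7.67 in cerebellum and between 9.14 and 9.54 in hippocampus.

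The age course of few members differed between the tissues. The test of this difference called 4 of 57 probe sets in undosed pups and 4 in dosed pups (7.02% in each, beside 18.3% and 12.9% of all tested). With the arrays of high Xist left out it called 0 in undosed pups, beside 4.07% of all tested. With 1 probe set per gene, Dnajb13 and Dnajb12, an ER membrane J protein, were called in undosed pups, and Dnajc12, Hspb6 and Dnajb1 in dosed pups. The calls in undosed pups also held another probe set of Dnajc6 (0.82) and of Cct6a (0.62). The probe sets of these genes used here had 0.36 and 0.17 and were not called. Hspb6 rose by 0.68 in dosed cerebellum and 0.22 in dosed hippocampus, a difference of 0.46 ± 0.11 (limma adjusted p = 0.00991). Dnajb1 fell by 0.34 in dosed cerebellum and had 0.14 in dosed hippocampus, a difference of -0.48 ± 0.11 (adjusted p = 0.00749).

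The ER chaperones Hspa5 and Hsp90b1 and the HSP110 proteins Hspa4 and Hsph1 were low in both tissues of 1 pup, that of dosed dam 15 at PND14. Hspa5, the HSP70 of the ER, was at 9.40 in the cerebellum of this pup and at 10.21 and 10.59 in its group mates (dams 12 and 18). In hippocampus it was at 9.45 in this pup and 10.26 and 10.22 in its mates. These were the 2 lowest of 23 values, the other 21 of which lay between 9.98 and 10.62. The PND7 pup of the same dam had 10.62 in cerebellum and 9.98 in hippocampus.

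Hsp90b1, the HSP90 of the ER, showed the same, at 10.66 against 11.34 and 11.27 in cerebellum and 10.27 against 10.91 and 10.94 in hippocampus. Hspa4, an HSP110 protein, was at 8.57 against 9.43 and 9.53 in cerebellum and at 8.94 against 9.47 and 9.48 in hippocampus. Hsph1, the heat-inducible HSP110 protein, was at 9.47 against 10.18 and 9.96 in cerebellum and 9.69 against 10.55 and 10.68 in hippocampus. The difference of this pup from the mean of its mates was -0.997 and -0.788 for Hspa5, -0.64 and -0.65 for Hsp90b1, -0.91 and -0.53 for Hspa4 and -0.60 and -0.92 for Hsph1, in cerebellum and hippocampus.

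**Figure D4:**
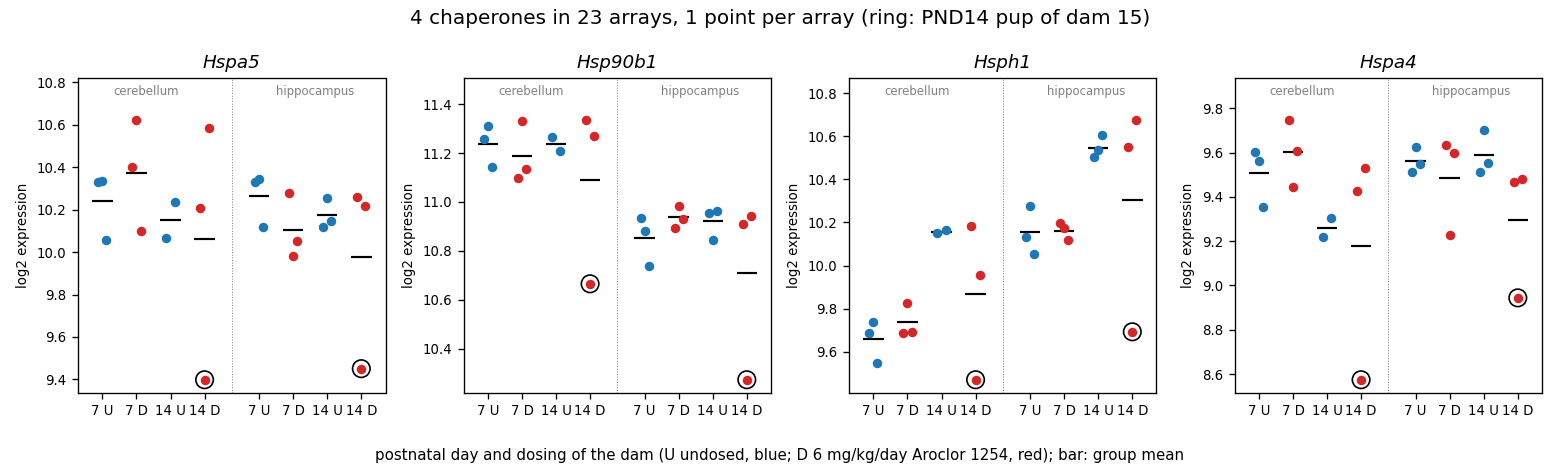
Log2 expression (y axis) of 4 chaperones in each of 23 arrays, by postnatal day and dosing (x axis, cerebellum left and hippocampus right of the dotted line), with bars for group means and rings around the PND14 pup of dam 15. The ringed arrays are the 2 lowest of 23 for Hspa5 (9.40 and 9.45), Hsp90b1 and Hspa4.

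The same measure was taken for each of the 11 pups with both tissues. In this pup 4 of 57 member probe sets (7.02%) lay more than 0.5 below the mean of the group mates in both tissues, beside 141 of all 10330 (1.36%). Above the mates by as much in both tissues were 0 of 57 member probe sets and also 141 of all 10330. In the other 10 pups 0 members were low in this way, beside 5 to 30 of all probe sets. For 7 of 48 member genes (14.6%) the arrays of this pup were the 2 lowest of 23, namely Hspa5, Hsp90b1, Hspa4, Dnajb11, Hspd1, Hspe1 and Stip1, beside 2.80% of all probe sets. Dnajb11, the main J protein partner of Hspa5, differed from the mates by -0.31 and -0.12, and Hspd1 by -0.19 and -0.28, in cerebellum and hippocampus. Of the 48 genes, 22 were below the mates in both tissues and 10 above, among the latter Cct8 (0.38 and 0.54), Dnajb4 (0.51 and 0.39) and Hspa1a (0.30 and 0.22). Hspb1, which did not pass the filter, was at 6.68 against 5.41 and 5.72 in cerebellum and at 6.404 against 5.85 and 5.58 in hippocampus. The ER members Dnajb9 (-0.25 and -0.19) and Hspa13 (-0.09 and 0.08) lay nearer to the mates. The pup was picked out by these values, so they are given without a test.

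Other ER genes were low in this pup. Of 21 measured genes of ER folding and the unfolded protein response, 5 lay more than 0.5 below the mates in both tissues and 0 above, while 13 were below and 4 above in both by any amount. Pdia4, a disulfide isomerase, differed from them by -1.09 and -0.63, the calcium-binding lectin Calr by -0.73 and -0.77, and the secreted factor Manf by -0.81 and -0.58, in cerebellum and hippocampus. Other markers differed in this pup too. All 14 dividing cell genes were below the mates in both tissues (median -0.70 in cerebellum and -0.20 in hippocampus), 8 of 10 myelin genes were (-0.20 and -1.44), and all 3 red cell genes were above them (0.99 and 0.89). Their part in the low chaperone values was not tested.

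Hsph1 was among the genes that picked out this pup, so its values without the pup are given as a description with no test. Its changes from PND7 to PND14 were then 0.33 in dosed cerebellum and 0.45 in dosed hippocampus, against 0.13 and 0.14 with the pup. The undosed groups do not hold this pup. There cerebellum went from 9.69, 9.55 and 9.74 (dams 1, 7 and 13) to 10.15 and 10.16, and hippocampus from 10.13, 10.05 and 10.28 to 10.50, 10.61 and 10.53, without overlap. In the fit of all 23 arrays these undosed changes were 0.50 ± 0.20 (limma adjusted p = 0.0606) and 0.39 ± 0.18 (adjusted p = 0.102), so Hsph1 was not called with age.

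With all 23 arrays Hsph1 was called lower in cerebellum than in hippocampus in 3 of the 4 tissue comparisons (-0.50 ± 0.18 and -0.43 ± 0.18 at PND7 and -0.44 ± 0.18 in dosed PND14 pups), and none of the 3 calls held without the arrays of high Xist. Hsp90b1 was called higher in cerebellum in undosed PND7 (0.39 ± 0.15) and dosed PND14 pups (0.38 ± 0.15), and neither call held without those arrays. Hspa5 was not called with age or tissue. Its estimate for dosing in PND14 cerebellum was -0.09 ± 0.25 with this pup and 0.24 without it, and in PND14 hippocampus -0.20 ± 0.22 and 0.07, and it was not called with the pup.

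Dosing of the dam gave no call among the members. Limma called 0 of 57 probe sets in each of the 4 dosing comparisons and in the comparison of 1 mean per dam. The background was 0% in 4 of these and 0.6% (62 of 10330) in PND7 hippocampus. At an unadjusted p under 0.05 there were 2 members in PND7 cerebellum, 5 in PND14 cerebellum, 7 in PND7 hippocampus, 3 in PND14 hippocampus and 1 in the mean per dam, beside 5.26%, 4.87%, 17%, 3.79% and 4.69% of all tested. The median change of the 48 genes lay between -0.04 and 0.02.

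The members nearest to a call were in PND7 hippocampus. Hspb6 was at 7.63, 7.42 and 7.41 in undosed (dams 1, 7 and 13) and at 7.90, 7.84 and 7.695 in dosed pups (dams 12, 15 and 18). Every dosed array lay above every undosed array. The change was 0.32 ± 0.08 (limma adjusted p = 0.0595). It was called without the PND14 arrays of dam 15 (0.32 ± 0.08, adjusted p = 0.0395) and with no filter on low values. None of those dam 15 arrays enters this PND7 comparison, and the estimate stayed at 0.32. Without the arrays of high Xist, which include the undosed array of dam 13 here, it was not called.

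In cerebellum of the same age Hspb6 had -0.10 ± 0.08 (adjusted p = 0.979), and the difference between tissues, a comparison added after the values were seen, was -0.43 ± 0.11 (adjusted p = 0.144, limma). That comparison called 0 members at either age, and 7 at PND7 and 1 at PND14 had an unadjusted p under 0.05, beside 14.1% and 2.58% of all tested. In undosed PND7 pups Hspb6 was thus higher in cerebellum (0.23 ± 0.08, adjusted p = 0.0231) and in dosed PND7 pups lower (-0.20 ± 0.08, adjusted p = 0.0385), and neither call held without the arrays of high Xist. Next to it in PND7 hippocampus stood Dnajb12 (0.27 ± 0.08, adjusted p = 0.0926), Dnajc12 (0.30 ± 0.09, adjusted p = 0.106), Dnajb9 (-0.38 ± 0.14, adjusted p = 0.162) and Hspa9 (-0.20 ± 0.08, adjusted p = 0.192). All 11 measured genes of meninges and fibroblasts had lower estimates in dosed PND7 hippocampus (median -0.60, 2 called), and their part in these values was not tested.

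In PND14 cerebellum Dnajb1 was at 8.86 and 8.76 in undosed (dams 1 and 7) and at 8.32, 8.52 and 8.68 in dosed pups (dams 12, 15 and 18), a change of -0.30 ± 0.09 (limma adjusted p = 0.939). In this probe set all 3 dosed arrays lay below both undosed arrays. The other Dnajb1 probe set had -0.14, and there the groups overlapped, with dosed dam 18 at 8.4835 and undosed dam 7 at 8.4781. Of 10 HSF1-inducible genes, 0 were called in any dosing comparison, with medians of 0.06 in PND7 and -0.10 in PND14 cerebellum. Hspa1a had changes of -0.12, 0.16, 0.20 and -0.07 in PND7 cerebellum, PND14 cerebellum, PND7 hippocampus and PND14 hippocampus. The test of whether the age change differed with dosing called 0 members in either tissue (background 0% in cerebellum and 0.136% in hippocampus).

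**Figure D5:**
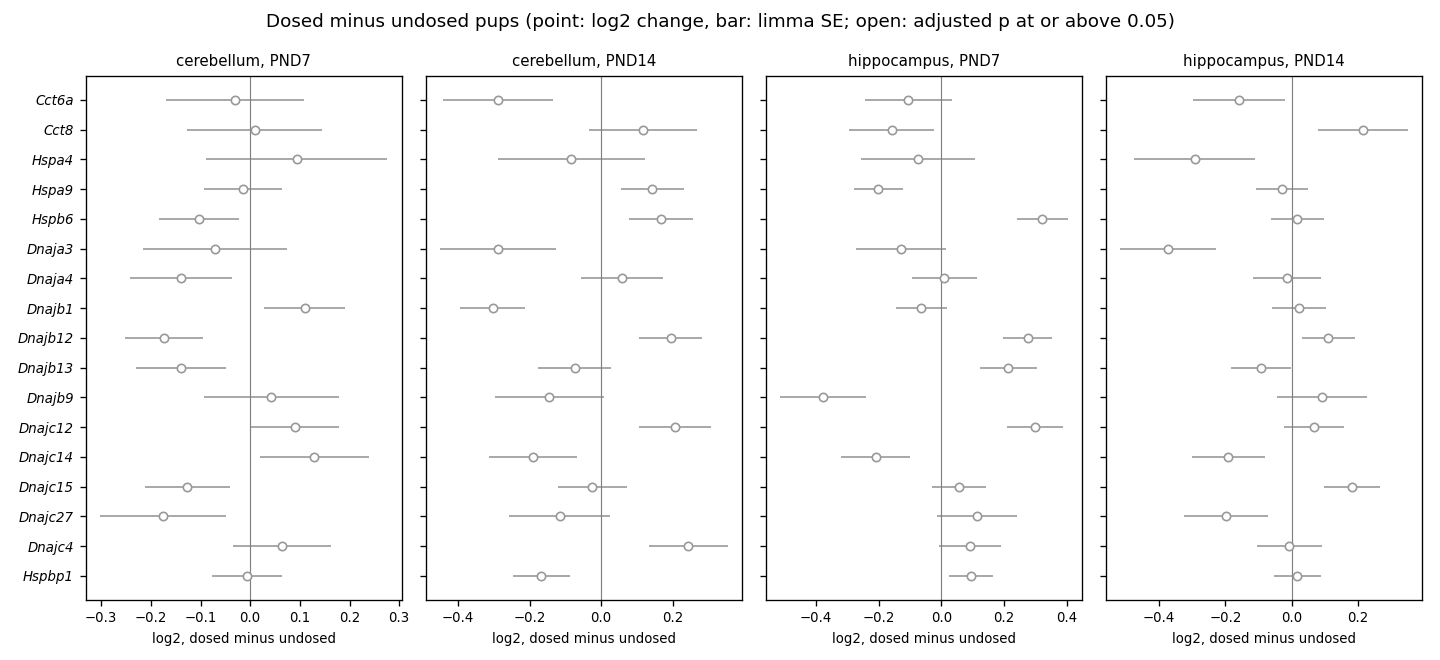
Log2 difference of dosed minus undosed pups (x axis) with limma SE for 17 members (rows), the 5 with the smallest unadjusted p from each dosing comparison, 1 panel per tissue and age. All points are open, since none had an adjusted p under 0.05, and Hspb6 in PND7 hippocampus (0.32) came closest.

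Genes of 13 symbols did not pass the filter with any probe set: Hspa1l, Hspa2, Hspb1, Hspb2, Hspb3, Hspb8, Dnajb3, Dnajc1, Dnajc3, Dnajc17, Dnajc21, Dnajc22 and Dnajc24. Their group means lay between 4.39 and 6.78. Dnajc3, the ER J protein with an ER stress element, was among them, at 5.48 to 6.08. Of the 6 small heat shock proteins among the members, 4 were in this set, which left Hspb6 and Hspb7.

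Genes of the wider folding pathways were described beside the members. The counts of these lists stand beside 32.5%, 34.8%, 31.8% and 28.4% of all tested called with age in undosed cerebellum, dosed cerebellum, undosed hippocampus and dosed hippocampus. Of 28 measured heat shock factors and co-chaperones, 1 rose and 4 fell in undosed cerebellum, 2 and 6 in dosed cerebellum, 4 and 4 in undosed hippocampus and 3 and 2 in dosed hippocampus. The HSP70 co-chaperone St13 fell in all 4 groups, by 0.42 ± 0.09, 0.68 ± 0.08, 0.49 ± 0.08 and 0.27 ± 0.08. Bag3, which links HSP70 to autophagy and is HSF1-inducible, rose in all but undosed cerebellum, by 0.63 ± 0.12 in dosed hippocampus. Of 13 genes of mitochondrial folding and proteolysis, 4 fell in undosed and 5 in dosed cerebellum with 0 higher, while in hippocampus 2 rose in undosed pups and 1 rose and 1 fell in dosed pups. Of 21 ER genes, 1 rose and 3 fell in undosed cerebellum, and 5 fell in dosed cerebellum. In hippocampus 1 rose and 1 fell in undosed pups, and 2 rose and 2 fell in dosed pups. The isomerase Pdia6 fell by 0.45 ± 0.15 in undosed and 0.64 ± 0.14 in dosed cerebellum. The dosed counts include the PND14 pup of dam 15, in which several ER genes were low. The median difference of the 21 from its mates was -0.26 in cerebellum and -0.14 in hippocampus. The part of this pup in the dosed counts and in the fall of Pdia6 was not tested.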

How the data were processed

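The series holds 24 samples, each hybridised to 1 Affymetrix rat array. The values are on the log2 scale as deposited by the authors, and the software that made them is not given in the sources used here. The deposited log2 table held 15923 probe sets, of which 57 controls were left out. The platform table gave 1 symbol to 12783 of the other probe sets, several to 312 and none to 2771.

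The array with a column median above 7.7 was left out and the other 23 were quantile normalised. A probe set was kept if its value exceeded the 40th percentile in 3 or more arrays (10330). Limma 3.58.1 in R 4.3.3 fitted 1 mean per group, with contrasts, eBayes and Benjamini-Hochberg adjustment over all probe sets tested, and 0.05 as the threshold. A gene with several probe sets is given by the one with the highest mean. Replicates are pups of separate dams. The number of arrays limits the precision. The fit was tested on simulated data.

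The members and lists were chosen with earlier results of these data known. Members named with values were drawn from several sets. These were the 6 largest called rises and falls per age and tissue comparison and the 4 largest called differences each way in comparisons of changes. The 5 smallest p per dosing comparison and well-known chaperones were the other sets. For other lists, names were drawn from the 2 called genes with the largest change each way. Not all of these are named, so an unnamed gene may still have been called. Other genes named were chosen after their values were seen. Alternatives were the values as deposited, other filters, an intensity trend, all 24 arrays, single-tissue fits, dam as a block, arrays of high Xist left out and each array left out.

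Dam numbers tie samples together. Deviations from group means in both tissues of a dam at 1 age correlated at a median r of 0.28 over 11 pairs (0.02 to 0.58), and in 1 tissue at both ages at 0.01.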

Additional observations from a re-analysis of the deposited data

Results flagged for a closer look

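The change with age differed between cerebellum and hippocampus for 5 genes, with 1 probe set per gene. Limma's test of that difference was used (cerebellum minus hippocampus, adjusted over all probe sets). Another probe set of Dnajc6 (0.82) and of Cct6a (0.62) was called too in undosed pups, while the ones used here had 0.36 and 0.17. In undosed pups the difference was -0.56 ± 0.14 for Dnajb13 (adjusted p = 0.0073), which rose by 0.47 in hippocampus and had -0.08 in cerebellum. It was -0.41 ± 0.12 for Dnajb12 (adjusted p = 0.0202), which rose by 0.26 in hippocampus and had -0.15 in cerebellum. Without the arrays of high Xist the adjusted p was 0.129 for Dnajb13 and 0.173 for Dnajb12.

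In dosed pups the difference was 0.47 ± 0.13 for Dnajc12 (limma adjusted p = 0.0174), which rose by 0.48 in cerebellum and had 0.01 in hippocampus. It was 0.46 ± 0.11 for Hspb6 (adjusted p = 0.00991), which rose in both tissues and more in cerebellum. It was -0.48 ± 0.11 for Dnajb1 (adjusted p = 0.00749), which fell in cerebellum and had 0.14 in hippocampus.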

How the results depend on the processing

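Of 1041 recomputed values of named genes under other settings, 967 kept their direction and side of the threshold, 66 lost the call, 2 gained one and 6 reversed. The 6 reversals came with all 24 arrays: dosing in PND14 cerebellum gave -0.12 for Dnajc4 and -0.018 for Dnajc12, age in undosed cerebellum gave -0.92 for Dnajb2, -0.055 for Dnajb5 and 0.038 for Dnajc2, and tissue in undosed PND14 pups gave -0.49 for Dnajc13. With all 24 arrays, called members numbered 10 with age in undosed and 4 in dosed hippocampus, 18 with tissue in undosed PND7 and 19 in dosed PND14 pups, and 2 (undosed) and 1 (dosed) for the age change by tissue. Without the arrays of high Xist, they numbered 7 with age in undosed cerebellum, 11 in undosed and 13 in dosed hippocampus, 16 with tissue in undosed PND7 and 15 in undosed PND14 pups, and 0 for the age change by tissue in undosed pups. A filter at the 60th percentile left 1 in the latter. Without the PND14 arrays of dam 15, a setting chosen after seeing the data, 7 were called for the age change by tissue in dosed pups, and 1 for dosing in PND7 hippocampus, as with no filter. Except where fewer arrays or genes were used, the cause was not tested.

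Leaving out each array in turn gave 0 to 3 calls for dosing in PND7 hippocampus, the 3 without the dosed pup of dam 18, and 0 in the other dosing comparisons. With age the counts were 9 to 13 in undosed cerebellum (9 without dam 7 at PND14), 21 to 26 in dosed cerebellum, 14 to 19 in undosed and 7 to 19 in dosed hippocampus (7 without dam 18 at PND14). With tissue they were 22 to 26, 25 to 30, 14 to 24 and 26 to 35 in undosed PND7, dosed PND7, undosed PND14 (14 without the cerebellum of dam 1) and dosed PND14 pups. The age change by tissue gave 3 to 4 in undosed and 3 to 7 in dosed pups. With dam as a replicate block (correlation 0.043), 16, 25, 19 and 20 members were called in the age comparisons, 29, 33, 29 and 33 in the tissue comparisons, 0 in each dosing comparison, and 4 and 6 for the age change by tissue. The block moved no count by more than 1.5 times. It joined all arrays of a dam over both ages. The pairing of both tissues of 1 pup, with a median r of 0.28, was not fitted by itself.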

Other observations

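Immediate early genes, which neuronal activity induces, were described beside the chaperones. Of 7 measured, 1 rose in undosed and 4 in dosed cerebellum, and 4 rose in undosed and 3 in dosed hippocampus, with 0 lower. The shares of all tested called with age in these groups were 32.5%, 34.8%, 31.8% and 28.4%. Between tissues they differed in both directions. In undosed PND7 pups Ier2 was higher in cerebellum (1.23 ± 0.14) and Egr1 lower (-1.22 ± 0.23). Arc rose by 1.32 ± 0.17 and Egr1 by 1.18 ± 0.23 in undosed hippocampus (limma adjusted p = 9.73e-06 and 0.000482). Among co-chaperones, Fkbp5, which binds steroid receptor complexes with HSP90, was higher in cerebellum than in hippocampus at PND7, by 1.15 ± 0.12 in undosed and 1.21 ± 0.12 in dosed pups. The mitochondrial import helpers Tomm34 and Tomm70 were lower in cerebellum in all 4 tissue comparisons, Tomm34 by -0.98 ± 0.13 in undosed PND14 pups. The phosducin-like proteins Pdcl and Pdcl3, which work with the chaperonin, were higher in cerebellum in all 4, by 1.40 ± 0.14 and 1.12 ± 0.10 in undosed PND14 pups.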
